A study of Mus musculus with 10 samples.

Results

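The glucocorticoid receptor and a set of genes known to respond to it were followed in pancreatic islets, the endocrine cell clusters of the pancreas, of sedentary and treadmill-trained mice. The 10 genes were chosen by symbol (Nr3c1, Hsd11b1, Fkbp5, Tsc22d3, Zbtb16, Cebpd, Sgk1, Dusp1, Errfi1 and Fam107a), and all 10 were found among the 52178 Ensembl genes of the count table. They were picked with results of the exercise comparison known, so their levels are given as a description with no test of their own. Nothing is read from their calls in the fit over all genes. All libraries came from male C57Bl/6 retired breeders that carried no stated allele or drug, 5 libraries of sedentary animals (sedentary 1 to 5) and 5 of exercised animals (exercise 6 to 10). Training lasted 2 weeks, with 1 h of running on each of 5 days a week at 17 cm/s up a 5 degree slope, and was preceded by 3 days of habituation. Islets were released with collagenase, picked by hand and placed in medium with 11 mM glucose. The labels give neither the ages nor the time between the last run and islet isolation, and do not say that each library is a separate animal, so p-values here reflect variation from library to library, some of which may be technical.

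Glucocorticoids, corticosterone in the mouse, are steroid hormones of the adrenal cortex that are released in stress and during exertion. Without hormone the receptor is held in the cytoplasm by heat shock protein 90 and its co-chaperones. With hormone it enters the nucleus, binds DNA mostly as a dimer at a palindrome of short arms, and raises some genes while it restrains others, many of them inflammatory. In islets, glucocorticoids are known to lower insulin secretion, and the enzyme encoded by Hsd11b1 can regenerate active hormone inside the cell.

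The libraries held between 15081768 and 23222563 rounded counts. Levels are given as CPM, counts relative to library size, with sizes scaled by trimmed-mean (TMM) factors. Sedentary 1 and 2 stood apart from the other libraries. Beta cell markers (8 genes, Ins1 and Ins2 among them) took 0.858 and 4.04% of counts there, against 16.2 to 23% in sedentary 3 to 5 and 8.96 to 17.7% in the exercise libraries. Markers of small intestinal epithelium (10 genes) took 1.02 and 1.47% in sedentary 1 and 2, 0.257 to 0.333% in sedentary 3 to 5 and 0.00866 to 0.0561% in exercise. Markers of acinar cells, the enzyme-secreting cells of the exocrine pancreas (10 genes), took 5.36 to 10.7% in sedentary and 11.8 to 19.8% in exercise, with the highest shares in exercise 9 (19.8%) and exercise 6 (16.1%). In bulk tissue, fewer cells of a type and less RNA per cell cannot be told apart.

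The groups differed most at Zbtb16, Fam107a, Fkbp5 and Cebpd, where every exercise library lay above every sedentary library. Errfi1 was higher on average with overlapping groups, and Dusp1 overlapped as well. The groups overlapped broadly at the receptor gene Nr3c1 and at Tsc22d3, and Sgk1 and Hsd11b1 were lower on average in exercise. Nonoverlap with exercise above was found for 4 of the 10 genes and for 6.28% of the 15298 genes tested, where 11.3% had exercise below and 17.6% were apart in either direction. In the fit over all tested genes, 5 of the 10 passed the threshold (Benjamini-Hochberg adjusted p under 0.05), all with exercise higher, against 13.9% of all tested genes in either direction and 2.44% with exercise higher. Since this contrast was used to choose the genes, nothing is read from these counts, nor from the calls of the 10 that follow. With library totals alone as the scaling, 5 of the 10 passed with exercise higher and 1 with exercise lower. Of all 15298 tested genes, 159 were then higher and 4408 lower. Without sedentary 1 and 2, 3 of the 10 passed (Zbtb16, Fkbp5 and Fam107a), against 12.8% of 15692 genes in either direction. Errfi1 no longer passed when any 1 of sedentary 1, 2, 3 or 5 or exercise 6 to 9 was left out, and Sgk1 passed, with exercise lower, without sedentary 3, 4 or 5 or exercise 9. Without exercise 6 and 9, a set chosen after seeing the data, 0 of 15776 genes passed in edgeR (0%, with 3552 at an unadjusted p under 0.05), and hence 0 of these 10 or of any list described here. All 10 passed the filter on low counts.

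**Figure D1:**
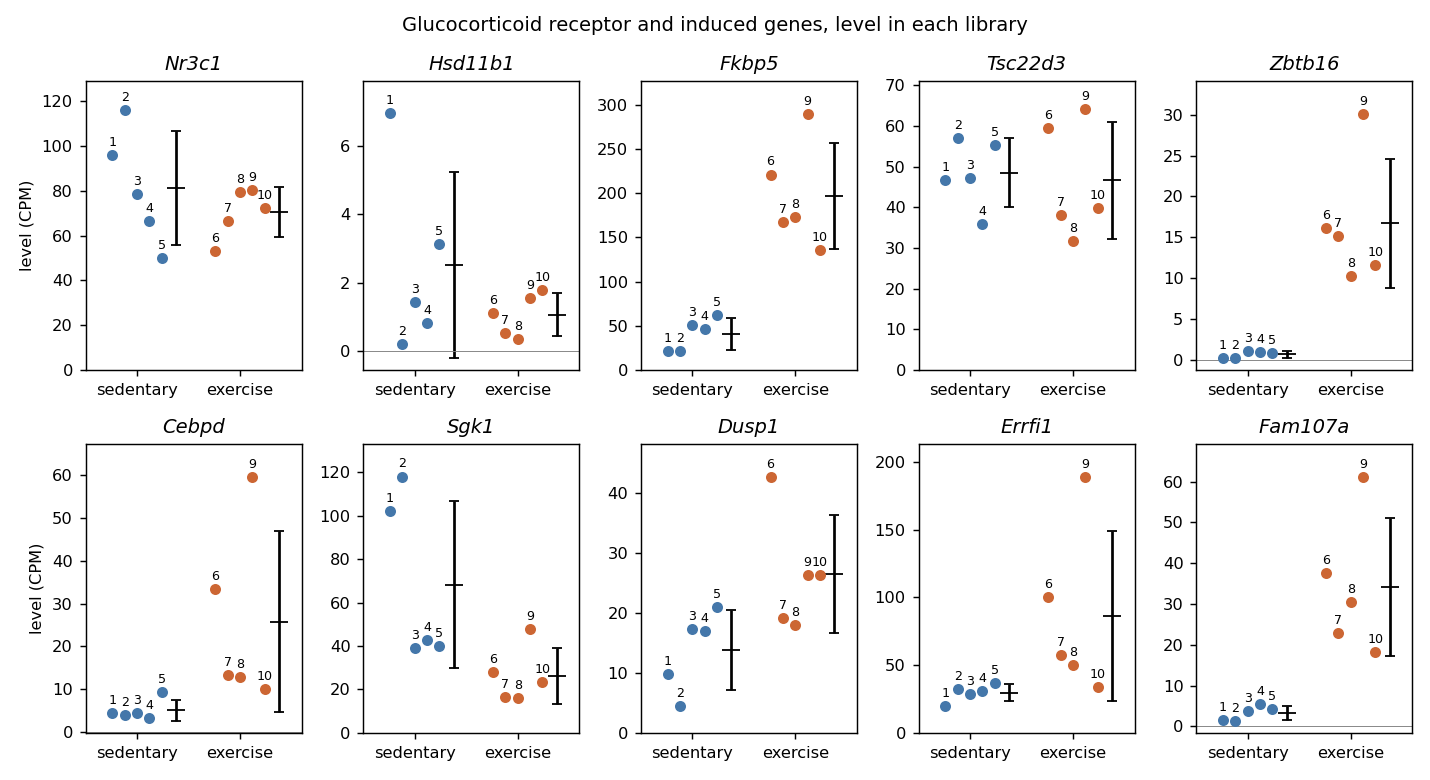
Level of each of the 10 genes (CPM, vertical axis, a scale of its own in each panel) in the 5 sedentary and 5 exercise libraries. Points are libraries with their numbers, and the black bar is the mean ± SD (n = 5 each). The groups are apart at Fkbp5, Zbtb16, Cebpd and Fam107a, and sedentary 1 and 2 are the highest libraries at Nr3c1 and Sgk1.

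Nr3c1 (ENSMUSG00000024431) encodes the receptor itself, which nearly all cell types carry. It had 95.8, 116, 78.4, 66.6 and 50.1 CPM in sedentary 1 to 5 and 53.1, 66.6, 79.6, 80.5 and 72.2 CPM in exercise 6 to 10. All 5 exercise libraries lay within the sedentary range, and the top of that range was set by sedentary 1 and 2. The means were 81.3 ± 25.4 and 70.4 ± 11.2 CPM (SD, n = 5 each), a log2 fold change of -0.21 ± 0.22 (SE). The sign turned without sedentary 1 and 2, to 0.14, and the value was -0.54 with scaling to library totals alone.

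Hsd11b1 (ENSMUSG00000016194), the gene of 11-beta-hydroxysteroid dehydrogenase 1, reactivates hormone from its inert form. It had 6.95, 0.218, 1.44, 0.820 and 3.13 CPM in sedentary 1 to 5 and 1.12, 0.520, 0.345, 1.54 and 1.80 CPM in exercise 6 to 10. All exercise libraries lay within the sedentary range, which spanned 31.9-fold. The gene rested on 230 sedentary counts, 117 of them in sedentary 1, and 95 exercise counts, and its log2 fold change of -1.22 ± 0.79 (SE) was -0.39 without sedentary 1.

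Fkbp5 (ENSMUSG00000024222) encodes FKBP51, a co-chaperone that lowers the receptor's affinity for hormone and is itself induced by it, which forms a short feedback loop. It had 21.7, 21.9, 50.5, 46.7 and 61.9 CPM in sedentary 1 to 5 and 221, 167, 173, 289 and 136 CPM in exercise 6 to 10. The lowest exercise library, exercise 10, was above the highest sedentary library, sedentary 5. Its log2 fold change was 2.28 ± 0.34 (SE), or 4.86-fold, and 1.92 without sedentary 1 and 2. Leaving out any 1 library gave values from 2.12 to 2.48.

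Tsc22d3 (ENSMUSG00000031431) encodes GILZ, a leucine zipper protein through which glucocorticoids restrain inflammatory signalling, and is among the most widely used readouts of the receptor. It had 46.8, 57.1, 47.1, 35.8 and 55.3 CPM in sedentary 1 to 5 and 59.5, 38, 31.6, 64.1 and 39.9 CPM in exercise 6 to 10. The groups overlapped, with exercise 6 and 9 above the sedentary range and exercise 8 below it. The log2 fold change was -0.06 ± 0.22 (SE), with a sign that depended on the processing, 0.05 with upper quartile factors, 0.04 without sedentary 1 and 2 and -0.45 with library totals alone.

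Zbtb16 (ENSMUSG00000066687), the gene of the zinc finger repressor PLZF, had the largest fold change of the 10. It was low in sedentary libraries, at 0.238, 0.218, 1.11, 0.906 and 0.831 CPM (66 counts in all), and reached 16.1, 15.1, 10.3, 30.1 and 11.6 CPM in exercise 6 to 10 (1407 counts). The lowest exercise library, exercise 8, had 10.3 CPM, against 1.11 CPM in the highest sedentary library. Zbtb16 thus had a log2 fold change of 4.63 ± 0.51 (SE), 4.15 without sedentary 1 and 2 and 4.24 without exercise 6 and 9.

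Cebpd (ENSMUSG00000071637), a transcription factor gene of the acute phase and of fat cell differentiation, had 4.58, 4.03, 4.49, 3.24 and 9.39 CPM in sedentary 1 to 5 and 33.4, 13.3, 12.8, 59.4 and 10.2 CPM in exercise 6 to 10. The groups were separated by a narrow gap, between sedentary 5 and exercise 10, and within exercise the levels spanned 5.83-fold. Its log2 fold change of 2.32 ± 0.53 (SE) was 1.27 without exercise 6 and 9.

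Sgk1 (ENSMUSG00000019970), a kinase gene that stimulates sodium uptake in epithelia and is induced by glucocorticoids and mineralocorticoids, went the other way. It had 102, 118, 38.9, 42.8 and 40.2 CPM in sedentary 1 to 5 and 27.9, 16.6, 16.0, 47.7 and 23.5 CPM in exercise 6 to 10. Sedentary 1 and 2, the libraries with the most intestinal transcripts, were far above the other 3 sedentary libraries, and exercise 9 lay inside the sedentary range. The log2 fold change was -1.38 ± 0.42 (SE), and -0.60 without sedentary 1 and 2. The part of intestinal cells in this difference was not tested.

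Fam107a (ENSMUSG00000021750), an actin-associated gene induced by stress and glucocorticoids in brain, had 1.55, 1.36, 3.71, 5.44 and 4.35 CPM in sedentary 1 to 5 and 37.7, 22.9, 30.6, 61.2 and 18.1 CPM in exercise 6 to 10. No exercise library came near the sedentary range. Fam107a had a log2 fold change of 3.37 ± 0.47 (SE), or 10.3-fold, and 2.94 without sedentary 1 and 2.

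Promoter sequences of these targets are shown because the receptor's palindrome can be looked for in them. RefSeq windows of 300 bases (250 before to 50 after an annotated start, GRCm38.p6) were matched by symbol for 7 of the 10 genes, 17 windows in all, with none for Zbtb16, Nr3c1 and Cebpd. The palindrome searched was AGAACA, then any 3 bases, then TGTTCT. Its core was GNACA, then any 3 bases, then TGTNC, with N for any base, and its single arm was AGAACA, which on the other strand reads as TGTTCT. Both strands were searched. These searches overlap, since the full palindrome holds the core and both arms. The full palindrome was found in 3 of all 32851 windows (0.00913%), and 1 of the 3 belonged to Sgk1, starting 189 bases before an annotated start (chr10:21993640-21993939, plus strand). The core was in 0.475% of all windows and, among these genes, also in Fam107a, starting 118 bases before the start of the window shown (chr14:8309730-8310029, minus strand) and present too in a second window that overlaps it. The arm was in 19.0% of all windows, among them a Tsc22d3 window (chrX:140600473-140600772, minus strand). No arm was found in the only Fkbp5 window (chr17:28486100-28486399, minus strand), which says only that these letters are absent there. Capitals mark the full palindrome in Sgk1, the core and arms in Fam107a and the arm in Tsc22d3.
Sgk1: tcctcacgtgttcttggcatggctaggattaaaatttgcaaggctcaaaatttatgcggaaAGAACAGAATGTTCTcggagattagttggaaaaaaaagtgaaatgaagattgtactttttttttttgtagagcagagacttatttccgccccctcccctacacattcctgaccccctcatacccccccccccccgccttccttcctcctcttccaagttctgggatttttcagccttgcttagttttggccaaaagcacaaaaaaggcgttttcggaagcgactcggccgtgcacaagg
Fam107a: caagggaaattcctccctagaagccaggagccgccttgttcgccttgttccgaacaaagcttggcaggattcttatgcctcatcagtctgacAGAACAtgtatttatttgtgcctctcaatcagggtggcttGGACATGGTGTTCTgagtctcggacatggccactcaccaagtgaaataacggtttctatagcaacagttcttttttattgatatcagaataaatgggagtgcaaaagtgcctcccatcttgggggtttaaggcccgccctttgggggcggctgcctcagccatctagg
Tsc22d3: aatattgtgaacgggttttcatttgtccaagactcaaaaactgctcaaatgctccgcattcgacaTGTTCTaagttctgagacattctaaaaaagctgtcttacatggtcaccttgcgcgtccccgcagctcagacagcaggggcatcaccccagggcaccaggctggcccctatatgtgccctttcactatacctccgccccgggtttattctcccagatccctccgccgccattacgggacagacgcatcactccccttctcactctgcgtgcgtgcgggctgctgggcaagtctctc
Fkbp5: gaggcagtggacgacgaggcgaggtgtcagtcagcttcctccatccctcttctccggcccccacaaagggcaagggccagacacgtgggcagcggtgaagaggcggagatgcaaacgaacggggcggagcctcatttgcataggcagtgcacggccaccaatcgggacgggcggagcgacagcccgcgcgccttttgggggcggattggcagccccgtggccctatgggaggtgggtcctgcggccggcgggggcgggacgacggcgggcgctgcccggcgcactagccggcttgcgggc
Of these genes, Sgk1, with the full palindrome, had the lower mean in exercise. Fam107a, with the core and arms, and Fkbp5, with no arm in its window, had the higher mean. Tsc22d3, with an arm, overlapped between the groups. The part of these sites in the levels was not tested.

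Dusp1 (ENSMUSG00000024190) encodes a phosphatase that switches off MAP kinases and is induced both by glucocorticoids and, within minutes, by growth factors and stress. It had 9.87, 4.47, 17.4, 17.0 and 21.0 CPM in sedentary 1 to 5 and 42.8, 19.2, 18.0, 26.3 and 26.4 CPM in exercise 6 to 10. Exercise 7 and 8 lay inside the sedentary range, and sedentary 1 and 2 were the lowest libraries. The log2 fold change was 0.93 ± 0.39 (SE), and 0.55 without sedentary 1 and 2.

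Errfi1 (ENSMUSG00000028967) encodes MIG6, an inhibitor of the epidermal growth factor receptor. It had 19.7, 32.2, 28.9, 30.7 and 36.7 CPM in sedentary 1 to 5 and 100, 57.4, 49.9, 189 and 33.6 CPM in exercise 6 to 10. Exercise 10 lay inside the sedentary range and exercise 9 was 5.62 times higher than it. The log2 fold change of 1.54 ± 0.43 (SE) was 1.07 without exercise 9 and 0.71 without both exercise 6 and 9.

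Among the 17 windows, the cyclic AMP element TGACGTCA, which reads the same on both strands, was found in those of Dusp1 (chr17:26508423-26508722, minus strand), starting 143 bases before the start, and of Errfi1 (chr4:150854820-150855119, plus strand), starting 51 bases before it. It was held by 1.79% of all 32851 windows, and was searched after these sequences had been seen. These 2 genes had none of the receptor's palindrome, core or arm in their windows. Both are shown with the element in capitals.
Dusp1: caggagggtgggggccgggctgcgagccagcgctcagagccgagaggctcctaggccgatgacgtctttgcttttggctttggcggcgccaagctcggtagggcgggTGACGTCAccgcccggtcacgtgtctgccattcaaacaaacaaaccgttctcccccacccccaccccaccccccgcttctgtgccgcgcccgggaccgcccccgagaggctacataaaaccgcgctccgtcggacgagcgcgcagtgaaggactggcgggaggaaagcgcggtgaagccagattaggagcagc
Errfi1: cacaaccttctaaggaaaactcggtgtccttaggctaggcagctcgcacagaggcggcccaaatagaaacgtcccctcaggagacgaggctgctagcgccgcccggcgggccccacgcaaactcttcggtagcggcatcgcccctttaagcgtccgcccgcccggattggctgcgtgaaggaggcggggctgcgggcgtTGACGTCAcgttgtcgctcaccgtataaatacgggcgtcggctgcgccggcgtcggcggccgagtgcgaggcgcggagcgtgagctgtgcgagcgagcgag

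**Figure D2:**
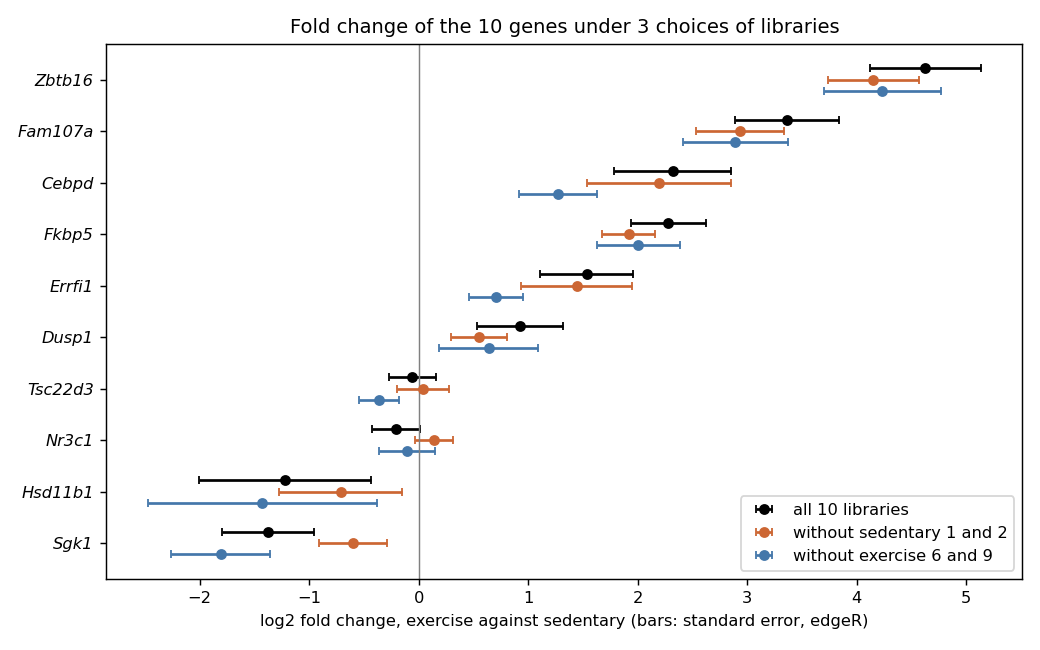
Log2 fold change of each gene, exercise against sedentary (horizontal axis), with its standard error from edgeR, for all 10 libraries, without sedentary 1 and 2, and without exercise 6 and 9. Zbtb16, Fam107a and Fkbp5 stay at 1.92 or above in all 3 sets, while Cebpd is at 1.27 rather than 2.32 and Errfi1 at 0.71 rather than 1.54 without exercise 6 and 9.

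Within each library, the count ratio to Nr3c1 is free of scaling between libraries (0.5 was added to each count). The Fkbp5 to Nr3c1 ratio was 0.227, 0.190, 0.645, 0.701 and 1.24 in sedentary 1 to 5 and 4.16, 2.51, 2.17, 3.58 and 1.88 in exercise 6 to 10. The groups did not overlap, nor did they for Zbtb16 (median ratio 0.0139 in sedentary and 0.227 in exercise) or Fam107a (0.0477 and 0.385). The ratios of Cebpd, Errfi1, Dusp1, Tsc22d3, Sgk1 and Hsd11b1 overlapped between the groups. For Cebpd this was because sedentary 5, at 0.188, exceeded exercise 8 (0.161) and exercise 10 (0.142). These ratios compare a gene with itself across libraries and not the abundance of different genes, since transcript length was not taken into account.

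The acinar share moved with several of these genes among the exercise libraries. All 10 genes of the acinar list had positive log2 fold changes. The groups overlapped at its transcription factor gene Bhlha15, with 36.7 to 110 CPM in sedentary and 71.6 to 97.4 CPM in exercise. From highest to lowest, the acinar share ranked exercise 9, 6, 7, 8 and 10, and Cebpd and Errfi1 ranked in exactly this order. In TMM-scaled CPM, exercise 9 was also first and exercise 6 second at Fkbp5, Zbtb16, Fam107a, Tsc22d3 and Sgk1. The acinar share is not scaled in this way. TMM factors were 0.669 in exercise 9 and 0.845 in exercise 6, against 0.934 to 1.06 in exercise 7, 8 and 10. A smaller factor raises the CPM of every gene in that library, so an order can depend on the scaling. At Tsc22d3, exercise 6 had 1066 counts and exercise 9 had 996, although exercise 9 was the larger library. Among sedentary libraries the order was different, since sedentary 1 had the highest acinar share (10.7%) and the lowest Fkbp5 and Errfi1 levels. Sedentary 1 and exercise 10 had nearly the same acinar share, 10.7 and 11.8%, and their Fkbp5 levels were 21.7 and 136 CPM, their Zbtb16 levels 0.238 and 11.6 CPM, their Cebpd levels 4.58 and 10.2 CPM and their Errfi1 levels 19.7 and 33.6 CPM. Sedentary 1 also had the lowest beta cell share of all libraries. The part of acinar cells in the levels of these genes was not tested.

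**Figure D3:**
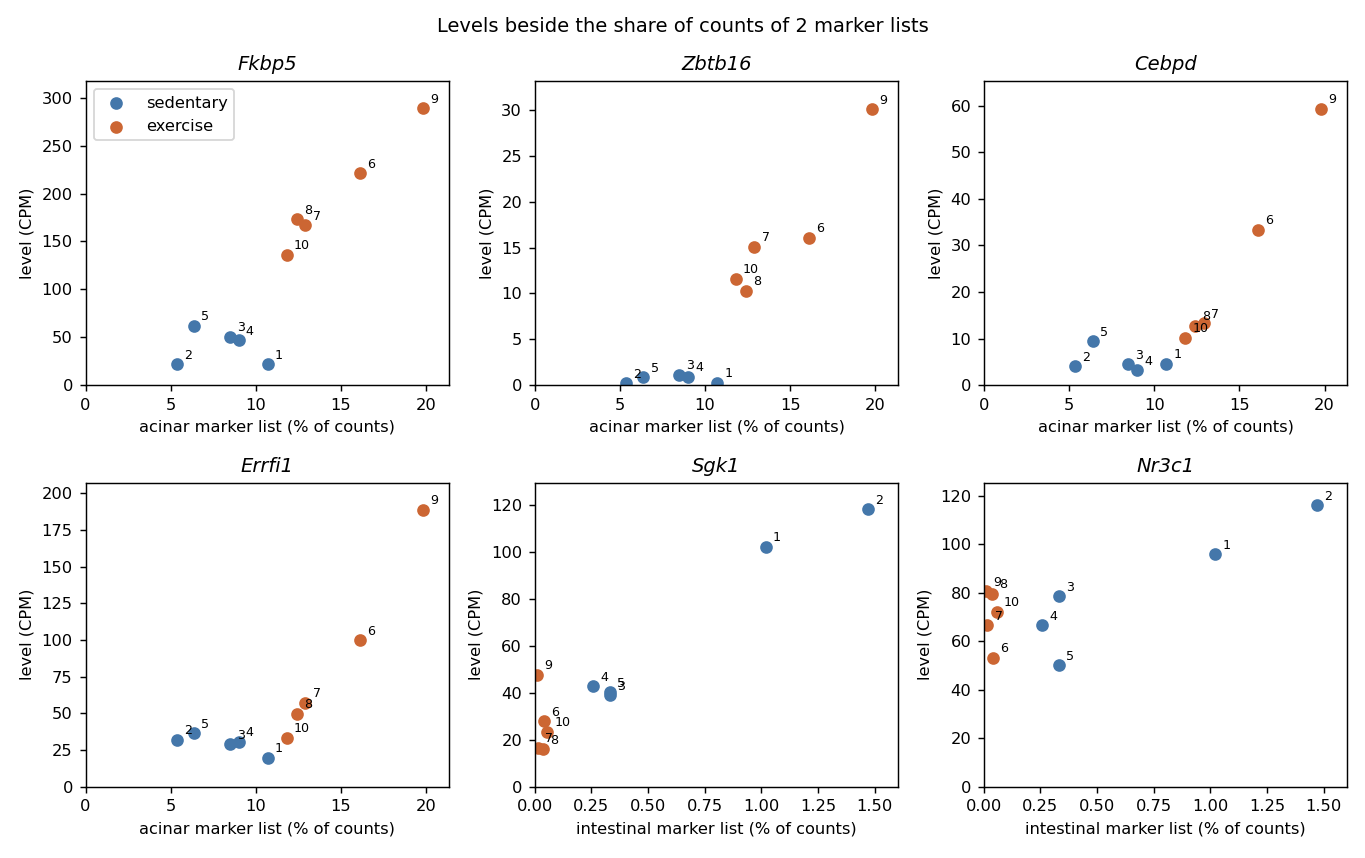
Level of 6 genes (CPM, vertical axis) against the share of counts taken by the acinar list (Fkbp5, Zbtb16, Cebpd, Errfi1) or the intestinal list (Sgk1, Nr3c1), in percent, for each numbered library. Exercise 9 and 6 have the highest acinar shares and the highest levels in the first 4 panels, and sedentary 1 and 2 have the highest intestinal shares and the highest levels in the last 2.

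Markers of other cell types that respond to glucocorticoids were summed as well, which does not measure the number of cells. The adipocyte list (7 genes) summed to 14.3 to 36.7 CPM in sedentary and 10.0 to 26.4 CPM in exercise libraries. Its defining members Adipoq, Plin1, Lep, Adrb3 and Retn were at 0 to 0.402 CPM in every library, and Fabp4 and Cidec made up most of the sum. The fibroblast and pericyte list (6 genes) summed to 16.0 to 146 CPM in sedentary and 39.8 to 78.2 CPM in exercise, the endothelial list (5 genes) to 62.8 to 260 and 197 to 256 CPM, and the macrophage list (6 genes) to 29.2 to 212 and 101 to 246 CPM. Lymphocyte markers (6 genes) summed to 13.7 to 332 and 21.2 to 131 CPM. In all 5 of these lists the ranges of the groups overlapped. All 6 macrophage markers had positive log2 fold changes (edgeR called 0, with 1 at an unadjusted p under 0.05, DESeq2 called 1 and limma-voom 0). Without sedentary 1 and 2, 2 of 6 were positive, and edgeR called 1 higher. It also called 1 higher without sedentary 3 and without sedentary 4. Mrc1 had 1.47 to 12.7 CPM in sedentary and 11.9 to 39.4 CPM in exercise. The smooth muscle list (4 genes) summed to 24.6 to 40.8 and 28.0 to 70.5 CPM, with all 4 positive (edgeR called 0, with 3 at an unadjusted p under 0.05). DESeq2 called 2 of the 4 higher and limma-voom 0. In edgeR, 1 was called higher with upper quartile factors, and 2 without sedentary 4 and without exercise 8.

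Genes whose pattern over the 10 libraries was nearest to a member were found as those with the smallest root mean square difference in log2 CPM after centring, among 13479 genes of at least 1 CPM on average, predicted loci left out. For Zbtb16 these were Fam107a (difference 0.656), the ion channel gene Asic2 (0.891), Mdm1 (0.916), the chemokine gene Ccl7 (0.968) and Asb9 (0.971). The nearest gene was itself one of the 10. Zbtb16 and Fam107a had both been chosen with their values in these libraries known, so nothing is read from their nearness. For Fkbp5 the nearest were the TWEAK receptor gene Tnfrsf12a (0.323), the hyaluronan receptor gene Lyve1 (0.345), Maff (0.373), Rgs4 (0.375) and Rab31 (0.391). Those for Nr3c1 were closer still, Cstf2 (0.0620), Larp4 (0.0820), Atp11b (0.0850), Cd2ap (0.0880) and Pign (0.0960), and had log2 fold changes between -0.26 and -0.19. The measure uses size as well as shape, so that a gene with a small spread finds near neighbours more easily.

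A wider list of 44 genes induced by glucocorticoids in other tissues, such as liver, muscle, fat and lung, had 41 tested genes, of which 13 rose, 3 fell and 25 did not pass (edgeR adjusted p under 0.05). Their median log2 fold change was 0.71, against -0.0007 over all genes tested, of which 2.44% rose and 11.4% fell. The counts depended on the scaling, for this list and for all genes. With library totals alone, 7 of the 41 rose and 7 fell, with a median of 0.33. Of all 15298 tested genes, 159 then rose and 4408 fell, with a median of -0.34. Leaving out the 6 genes whose values an earlier account of these data had given, 8 of 35 rose and 3 fell, with a median of 0.69. With library totals alone, 4 of these 35 rose and 7 fell, with a median of 0.25. Without exercise 6, and likewise without exercise 8, 3 of 36 rose and 3 fell. In the whole list, the 13 that rose were Mt1, Mt2, Hif3a, Plin4, Cd163, Glul, Klf15, Lpin1, Gadd45b, Klf9, Txnip, Foxo3 and Bcl2l1. Without sedentary 1 and 2, 16 of 42 rose and 3 fell, against 4.1% and 8.68% of all tested genes. The number that passed was 8 without exercise 6, 10 without exercise 7, 9 without exercise 8, 10 without exercise 9 and 21 without sedentary 4, against 16 with all libraries. The count over all genes moved too, to 951 to 1182 without exercise 6, 7, 8 or 9 and 3610 without sedentary 4, against 2119. This list and the repressed, chaperone and steroid handling lists below were written with an earlier account of these data known. Leaving out the genes it gave does not undo that choice, so their counts beside those of all genes are a description only.

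The metallothionein genes Mt1 and Mt2, which bind zinc and copper and respond to glucocorticoids as well as to metals, rose together. Mt1 had 48.1, 105, 144, 112 and 96.4 CPM in sedentary 1 to 5 and 892, 408, 380, 778 and 387 CPM in exercise 6 to 10, and Mt2 went from 54.5 ± 23.5 to 341 ± 138 CPM (SD, n = 5 each). Their log2 fold changes were 2.49 ± 0.36 and 2.64 ± 0.39 (SE, edgeR adjusted p = 0.00900 for each), with no overlap between groups. Exercise 6 and 9, of highest acinar share, were the highest libraries at both, and the part of acinar cells was not tested. As short paralogs they may share reads. Hif3a, a hypoxia-inducible factor gene that is also induced by glucocorticoids, rose from 0.355 ± 0.0838 to 2.74 ± 1.43 CPM (log2 fold change 2.93, edgeR adjusted p = 0.00900).

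Klf9, a transcription factor gene used as a receptor target in many tissues, rose from 48.5 ± 19.7 to 107 ± 31.3 CPM (SD, n = 5 each), with 1.14 ± 0.31 as its log2 fold change and SE (edgeR adjusted p = 0.0385). Its call was lost without sedentary 1, 2 or 5 or exercise 6, 7, 8 or 9 (highest edgeR adjusted p = 0.0908). Per1, a clock gene with a receptor site, had 16.0, 22, 32.2, 34.1 and 29.4 CPM in sedentary and 47.3, 43.1, 35.1, 53.4 and 37.2 CPM in exercise libraries. Every exercise library was above every sedentary library, yet the test was not passed (log2 fold change 0.69, edgeR adjusted p = 0.0557). Per1 passed without sedentary 4 (edgeR adjusted p = 0.0311), with RLE size factors (0.0491) and in DESeq2 (0.0132). Ddit4, which restrains mTORC1, and Nfkbia, the inhibitor of NF-kappaB, overlapped between the groups, with log2 fold changes of 0.70 ± 0.32 and 0.28 ± 0.24 (edgeR adjusted p = 0.157 and 0.402). Nfkbia changed sign with library totals alone (-0.10).

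The 3 members that fell were G6pc and Pck1, the terminal and the committing enzyme genes of gluconeogenesis, and Mertk, a receptor for apoptotic cells. G6pc went from 14.6 ± 12.4 to 0.496 ± 0.294 CPM (SD, n = 5 each), with -4.83 ± 0.74 as its log2 fold change and SE (edgeR adjusted p = 0.00900), and -3.40 without sedentary 1 and 2. Sedentary 1 and 2 held 29.5 and 26.6 CPM of it, and 4.14 to 7.59 CPM was found in sedentary 3 to 5. Sedentary 1 and 2 also led at Pck1 (45.2 and 136 CPM, the other sedentary libraries 23.6 to 33.3 CPM) and Mertk (38 and 57.8 CPM, the others 11.3 to 13.1 CPM). These are the libraries with the highest intestinal share, whose part in the falls was not tested.

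Of 20 genes that glucocorticoids repress in immune and other cells, 10 were abundant enough to test, and 4 rose, 1 fell and 5 did not pass. Over all tested genes 2.44% rose and 11.4% fell. The median log2 fold change of the list was 0.78, and with library totals alone 3 rose and 2 fell, with a median of 0.42. With that scaling, 159 of all 15298 tested genes rose and 4408 fell. The 4 that rose, Ccl7, Ccl2, Cxcl2 and Csf1, were all genes whose values had been given in an earlier account, and among the other 6 tested genes 0 rose and 1 fell (edgeR, with 2 at an unadjusted p under 0.05, both lower). In these 6, DESeq2 called 0 higher and 2 lower, and limma-voom 0. The monocyte chemokine gene Ccl2 had 0.416, 0.109, 0.775, 0.690 and 1.12 CPM in sedentary and 23.4, 2.41, 3.74, 6.63 and 1.95 CPM in exercise libraries, with exercise 6 far above the rest. At 3.59 ± 0.81 (SE, edgeR adjusted p = 0.0184), its log2 fold change was 2.54 without exercise 6. Ccl7 rose by a log2 fold change of 4.06 (edgeR adjusted p = 0.0175), which was 3.32 without exercise 6, its highest library at 14.9 CPM against 1.37 to 5.79 CPM in the other exercise libraries. The macrophage growth factor gene Csf1 rose by 0.99 (edgeR adjusted p = 0.0383), the latter call being lost without sedentary 1, 2 or 3 or any 1 exercise library (highest edgeR adjusted p = 0.0888). Ccl5, a T cell chemokine gene, fell from 16.3 ± 13.3 to 2.43 ± 1.55 CPM (log2 fold change -2.74, edgeR adjusted p = 0.0187), and did not pass when exercise 7 or 8 was left out (highest edgeR adjusted p = 0.0556). Its log2 fold change was -2.12 without sedentary 1, the highest library both at Ccl5 (38.9 CPM) and at the T cell marker Cd3e (41.2 CPM). All 6 lymphocyte markers were lower on average in exercise, with a median log2 fold change of -1.57; edgeR called 0 of them (3 at an unadjusted p under 0.05), limma-voom 0 and DESeq2 3, and their part in the fall of Ccl5 was not tested. Of the best known targets of repression, Il6, Tnf, Il1a, Ptgs2 and Nos2 were too low to test, each at 1.19 CPM or less in every library. Il1b, at 1.37 CPM or less, was tested and did not pass (log2 fold change 0.77 ± 0.55, SE, edgeR adjusted p = 0.327). The number that passed was 2 without exercise 7 or exercise 8 and 3 without sedentary 1, sedentary 2, exercise 6 or exercise 9, against 5 with all libraries. Over all genes, these fits called 951 to 1494, against 2119 with all libraries.

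Chaperones that hold the receptor and coregulators that it recruits formed another list. Of 23 tested genes, 0 rose (edgeR, with 2 higher at an unadjusted p under 0.05; DESeq2 called 2 higher and limma-voom 0), 2 fell and 21 did not pass, with a median of -0.19, which was 0.06 without sedentary 1 and 2. The 2 of 23 that fell stand beside 11.4% of all tested genes, so the count is no result about this list. Dnajb1, a heat shock protein 40 gene, fell from 50.1 ± 12.3 to 28.1 ± 1.33 CPM (SD, n = 5 each), its log2 fold change being -0.84 ± 0.16 (SE, edgeR adjusted p = 0.0105), with no overlap between groups. Dnaja1, of the same family, fell from 216 ± 70.1 to 132 ± 9.59 CPM (edgeR adjusted p = 0.0494). Its call was lost without sedentary 1, sedentary 2 or any 1 exercise library (highest edgeR adjusted p = 0.114), and 1 gene then passed in each case. The number that passed was 5 without sedentary 4, where 3610 of all 15405 tested genes passed. Fkbp4, which encodes FKBP52, the counterpart of FKBP51 that favours receptor activity, had 174, 284, 139, 152 and 176 CPM in sedentary and 145, 143, 138, 133 and 163 CPM in exercise libraries. Unlike Fkbp5 it overlapped between the groups, with sedentary 2 above all others (log2 fold change -0.36, edgeR adjusted p = 0.210).

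Of 13 genes of steroid handling and related receptors, 7 were tested and 2 fell, where 11.4% of all tested genes fell. Abcb1a, encoding a drug and steroid export pump abundant in intestine, had 62.3 and 75.5 CPM in sedentary 1 and 2, 10.1 to 18.2 CPM in sedentary 3 to 5 and 3.25 to 5.17 CPM in exercise. Its log2 fold change and SE were -3.14 ± 0.58 (edgeR adjusted p = 0.00937), and -1.73 without sedentary 1 and 2. Srd5a1, a steroid reductase gene, fell as well (log2 fold change -2.73, edgeR adjusted p = 0.0168), with its call lost without exercise 7 (edgeR adjusted p = 0.0513) and a value of -2.08 without sedentary 2, and was at 5.35 and 11.0 CPM in sedentary 1 and 2 against 1.42 to 2.33 CPM in sedentary 3 to 5. Both genes were highest where the intestinal share was highest, and its part was not tested. Without sedentary 4, 4 of 8 tested genes fell, where 2721 of all 15405 tested genes fell. Nr3c2, the mineralocorticoid receptor gene, whose product binds the same hormone, had 16.0, 23.9, 17.2, 14.5 and 12.5 CPM in sedentary and 9.88, 9.36, 13.0, 10.9 and 11.6 CPM in exercise libraries, and did not pass (log2 fold change -0.62 ± 0.19, edgeR adjusted p = 0.0517). Nr3c2 passed without sedentary 4 or 5 (lowest edgeR adjusted p = 0.0342), with library totals alone (0.0112) or upper quartile factors (0.0467), with the 1 CPM filter (0.0480) and in DESeq2 (0.0146). H6pd, which supplies the cofactor of the Hsd11b1 enzyme, had 28.7 ± 6.89 and 33.2 ± 3.65 CPM (edgeR adjusted p = 0.371) and changed sign with library totals alone (-0.15). Hsd11b2, the enzyme gene that inactivates the hormone, had 305 sedentary counts, most of them in sedentary 1 and 2 (3.92 and 9.37 CPM), and 10 exercise counts, with no overlap between the groups. It did not pass the filter on low counts. With no filter other than 1 count it fell (log2 fold change -4.78, edgeR adjusted p = 0.010). It was also called lower in the 6 fits with 1 library left out that admitted it (highest edgeR adjusted p = 0.0438). Those fits admitted Hsd11b2 only through the sedentary libraries, where it is high, so nothing is read from its calls there.

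**Figure D4:**
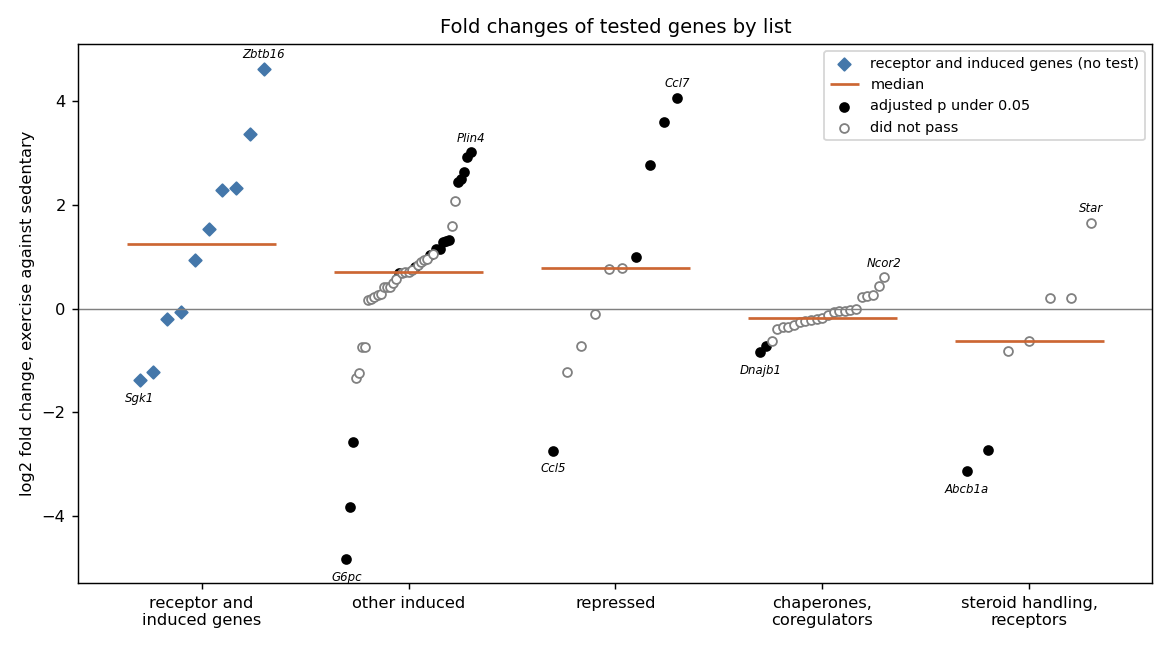
Log2 fold change, exercise against sedentary (vertical axis), of every tested gene in 5 lists. Diamonds are the receptor and its induced genes, shown without a test, filled circles passed edgeR's test, open circles did not, and lines are medians. The wider induced list has a median of 0.71 with 13 genes that rose and 3 that fell, and the chaperone list has a median of -0.19.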

How the data were processed

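RNA-seq of pancreatic islets was analysed in 10 libraries, 5 sedentary and 5 exercise. The deposited table holds the authors' estimated counts per Ensembl gene. Per the labels' protocols, RNA came from a column kit for small samples and libraries from a stranded mRNA kit. The submitters' processing notes name fastp and kallisto, without versions. Neither build nor annotation is named there (not given in the sources used here). In the deposited estimated counts, 12.62% of values were not whole (tolerance 1e-06), and all were rounded. Symbols came from GENCODE names for 48845 of 52178 genes.

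Testing used edgeR 4.0.16 (R 4.3.3), by its quasi-likelihood test, after its default filter (minimum count 10, minimum total 15), with TMM factors and Benjamini-Hochberg adjustment over 15298 genes. CPM values use TMM-scaled sizes (prior count 2 on the log2 scale). Group values are mean ± SD over 5 libraries. Simulated data with known changes were used to test this step.

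The 10 genes, the pathway and marker lists and the tests were chosen with earlier results of these data known. Named beside the 10 were, per pathway list, up to 4 genes of smallest p past the threshold, 8 genes given whatever they showed (Nr3c2, Hsd11b2, H6pd, Fkbp4, Per1, Klf9, Ddit4, Nfkbia) and 5 nearest genes each for Zbtb16, Fkbp5 and Nr3c1. Others named, such as Pck1, Mertk and the genes listed as having risen or as too low, were chosen after their values were seen. Alternatives were other scalings and filters (1 CPM in 5 libraries, or 1 count), DESeq2 1.42.0, limma-voom (limma 3.58.1), leaving out each library, and leaving out sedentary 1 and 2. Leaving out exercise 6 and 9, the libraries of highest acinar share, was added after seeing the data.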

Additional observations from a re-analysis of the deposited data

Results flagged for a closer look

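Within a group of 5 libraries, 4 values stood far from the rest, with a gap to the nearest library above 0.71 of the group's range. Chance flags about 1 in 20 groups, and 60 groups were examined. Cebpd was at 9.39 CPM in sedentary 5, against 3.24 to 4.58 CPM in the rest of that group. Ccl2 was at 23.4 CPM in exercise 6 (others 1.95 to 6.63 CPM) and Csf1 at 19.8 CPM in exercise 9 (others 10.1 to 11.6 CPM). Fkbp4 was at 284 CPM in sedentary 2, against 139 to 176 CPM in the other sedentary libraries.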

How the results depend on the processing

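No paired analysis was possible because sedentary libraries are numbered 1 to 5 and exercise libraries 6 to 10, with no common number. The median log2 fold change of the 10 genes was 1.23 with all libraries and stayed positive under all 19 alternatives, from 0.67 without exercise 6 and 9 to 1.37 without sedentary 5 or exercise 10. Without Zbtb16 and Fam107a, whose values an earlier account had given, the median was 0.43 over 8 genes, 4 higher and 4 lower, and 0.05 with library totals alone. Leaving out 1 library gave 1.02 to 1.37, with 4 to 6 of the 10 genes past the threshold. With limma-voom and without sedentary 1 and 2, 3 of the 10 passed. Nothing is read from such counts of the 10 genes, which were chosen with this contrast known. Without exercise 6 and 9 edgeR called 0 of 15776 genes, although 3552 had an unadjusted p under 0.05, so that 0 genes passed in every list, with 6 of the 10 genes at an unadjusted p under 0.05; no other tool was run on these 8 libraries, and the cause was not tested. Over all genes, 2119 of 15298 passed, against 4567 with library totals alone (159 higher, 4408 lower), 3739 with DESeq2 and 516 with limma-voom. With 1 library left out, 951 to 3610 passed, the most without sedentary 4. The counts of the lists that follow are to be read beside these. With library totals alone the median of all genes shifted to -0.34. The wider induced list had 16 genes past the threshold, against 14 with library totals alone (7 higher and 7 lower, not 13 and 3), 25 with DESeq2, 8 with limma-voom and 8 to 21 with 1 library left out. The repressed list had 5, against 3 without sedentary 1 and 2, 0 with limma-voom (6 at an unadjusted p under 0.05) and 2 to 5 with 1 library left out. The chaperone and coregulator list had 2, against 1 with RLE size factors, with no filter, with limma-voom and without sedentary 1 and 2, 9 with library totals alone, 5 with DESeq2 and 1 to 5 with 1 library left out. The steroid handling list had 2, against 0 with limma-voom (3 at an unadjusted p under 0.05; DESeq2 called 3) and 2 to 4 with 1 library left out. Among single genes outside the 10, the sign changed for H6pd with library totals alone (-0.15) and for Nfkbia with library totals alone (-0.10) and without exercise 6 and 9 (-0.05). Depth limited Hsd11b1, Hsd11b2 and the sedentary level of Zbtb16, which rest on 95 to 230, 10 to 305 and 66 counts per group. The sedentary levels of Hif3a, Ccl7 and Ccl2 rest on 34, 34 and 62 counts, and the exercise levels of G6pc and Srd5a1 on 45 and 58.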

Other observations

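Transcripts of the adrenal cortex, the source of glucocorticoids, were highest in exercise 7. The 5 genes shown were picked after the values of Star, Cyp11a1 and Cyp11b1 had been seen. In exercise 7, the cholesterol transport gene Star was at 7.67 CPM, the side-chain cleavage gene Cyp11a1 at 3.19 CPM, the gene of the last step to corticosterone, Cyp11b1, at 3.06 CPM, Hsd3b1 at 2.34 CPM and Cyp21a1 at 0.910 CPM. In the other 9 libraries the highest levels were 1.27, 0.293, 0.345, 0.690 and 0.0545 CPM in the same order. Star had 3 to 26 counts in each of those libraries, and exercise 8 held 12 counts of Hsd3b1, 6 of Cyp11b1 and 4 of Cyp11a1. Exercise 7 was not the highest exercise library at any of the 10 genes: it had 167 CPM of Fkbp5 and 15.1 CPM of Zbtb16, against 289 and 30.1 CPM in exercise 9. Without exercise 7 the log2 fold changes of Fkbp5 and Zbtb16 were 2.34 and 4.66, against 2.28 and 4.63 with all libraries. The part of adrenal tissue, or of its hormone, in the levels of the 10 genes was not tested.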
